A study of Bos taurus with 36 samples.

Results

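The spliceosome removes introns from nuclear transcripts. Most of the 58 genes described here encode proteins that build or steer it, while the 6 counted below as other LSM proteins act outside it. They were taken as every gene of the deposited count table whose bovine RefSeq protein-coding symbol starts with SNRP, with SF3A or SF3B and a digit, or with PRPF, LSM or SRSF and a digit, which gave 58 of 35092 genes in all. The rule uses only gene symbols and no measured value. By role the members were 8 proteins of the Sm core, 13 proteins of the U1 and U2 particles, 13 PRPF proteins, 7 proteins of the LSM2 to LSM8 ring, 6 other LSM proteins and 11 SR proteins.

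Libraries were made from organs of 10 male bovine fetuses at Day 42 of pregnancy and from blood of the heifers carrying them. In the ET_D7 group, Day 7 embryos had been transferred to recipients that were themselves on Day 7 of the cycle, and in the ET_D9 group embryos of the same age had been transferred to recipients on Day 9. The heifers were slaughtered to collect the organs, and a fetus is named by its rank in weight, 1 being the lightest and 10 the heaviest. The 5 ET_D7 fetuses weighed 1.253 to 1.37 g and the 5 ET_D9 fetuses 1.396 to 1.69 g, so every ET_D9 fetus was heavier than every ET_D7 fetus and the effects of weight and of transfer group cannot be told apart. There were 9 heart libraries (none for fetus 7), 9 libraries labelled gonads (none for fetus 2), 8 liver libraries (none for fetuses 6 and 7) and 10 maternal blood libraries, each of a tissue of 1 animal.

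Splicing is carried out by small nuclear ribonucleoprotein particles, each an RNA bound by a ring of Sm proteins, or by an LSM ring in the case of U6, and by proteins of its own. U1 recognises the start of an intron, U2 with its SF3A and SF3B subunits recognises the branch point, and the joined U4, U5 and U6 particles, which hold several PRPF proteins, bring in the catalytic centre. SR proteins bind exons in the transcript and help to select splice sites, and their levels are known to vary between tissues.

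All 58 members passed the count filters in every fit. The total count lay between 20930367 and 35857434 in the heart libraries, between 22762065 and 39649051 in the gonad-labelled libraries and between 18231089 and 34454772 in the liver libraries. In maternal blood, 5 libraries held 26602415 to 30393051 counts and the other 5 held 40516154 to 40812354. Single members held 75 to 16325 counts in a heart library, 75 to 52158 in a gonad-labelled library and 48 to 72307 in a blood library. In the liver the range was 0 to 18672 counts, with LSM10 at 0 in fetus 4 and SRSF12 at 0 in fetus 2. Transcripts of the mitochondrial genome made up 17.1% to 57.3% of a heart library and 16.3% to 36.8% of a liver library, against at most 7.23% elsewhere.

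The defining gonad markers were low in the gonad-labelled libraries. Their levels are raw CPM, counts scaled to a library total of 1000000. In the gonad-labelled libraries GATA4 lay at 0 to 0.188 raw CPM, DMRT1 at 0 to 0.455, NR5A1 at 0.479 to 1.80 and AMH at 1.59 to 3.60, and the germ cell gene DAZL did not exceed 0.116. SOX9, another Sertoli cell marker, reached 9.91 there against 7.00 in the heart and 1.34 in the liver. The 7 germ cell markers summed to at most 54.4 raw CPM, against at most 7.29 in the heart, mostly through KIT at 25.6 to 52.7, a receptor that other cell types also carry. The summed level of 9 Sertoli cell markers was 116 to 184 raw CPM there, of which CLU alone gave 101 to 160, against 218 to 375 in the heart. The 16 nephron progenitor and kidney markers together lay at 1017 to 1429 raw CPM in these libraries, against 155 to 302 in the heart and 110 to 184 in the liver, with PAX2 at 162 to 226 and EYA1 at 131 to 281. Not all of these markers were highest there. CITED1 lay at 1.68 to 3.35 raw CPM against 17.1 to 58.4 in the liver. CUBN lay at 2.60 to 6.18 against 6.98 to 14.3 in the liver, and LRP2 at 7.37 to 20.6 against 25.2 to 48.4. PODXL lay at 66.4 to 114 against 138 to 247 in the heart. The libraries are therefore called gonad-labelled throughout. The heart and liver libraries held their own markers, with summed levels of 22541 to 38353 raw CPM for 9 heart genes and 21711 to 41111 for 8 liver genes. A summed level of up to 3790 raw CPM of the heart genes was seen in blood, mostly MYH7, which reached 3539.

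Pairs of libraries also stood apart. In the gonad-labelled libraries of fetuses 6 and 8 the counts of 90.8% of 9227 genes stood in 1 ratio (0.786) within 1%. In the liver libraries of fetuses 1 and 2 those of 33.0% of 5461 genes stood in a ratio of 0.964. There 77.6% lay within 1 counting SD of the ratio, the spread expected from counting alone. The other pairs of libraries of 1 tissue held 1.76% to 11.1% within 1%. The highest of these joined the gonad-labelled library of fetus 10 to those of fetuses 6 (11.1%) and 8 (10.8%). In them 33.1% and 31.6% lay within 1 counting SD. The pair of fetuses 6 and 8 and that of fetuses 1 and 2 were each averaged and counted as 1 sample in every mean and SD. This left n = 8 for the gonad-labelled libraries and n = 7 for the liver. The library of fetus 10 was not merged. The tests used every library. Many results, but not all, are given a second time with the pairs counted once where that changed a call. SF3B6, LSM5 and SRSF12 were among the members that departed from the common ratio of the gonad-labelled pair by over 0.3 on the log2 scale.

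Levels in the organs are CPM after TMM normalization over the 26 organ libraries, and contrasts between organs were tested with edgeR's quasi-likelihood test at a Benjamini-Hochberg adjusted p under 0.05. CPM is not corrected for transcript length, so a gene is compared only with itself across tissues. In whole tissue, fewer cells with a transcript and less transcript per cell cannot be told apart. Blood was prepared with another library kit and was not tested against the organs.

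Members that differed between the organs were found in all role groups. Only the share of members higher in the gonad-labelled libraries, 46.6% in both contrasts, stood clearly above that of all genes. Between heart and liver, 18 of 58 members were higher in the heart (27.9% of all 25095 genes tested) and 18 were higher in the liver (30.7% of all genes). Between the gonad-labelled libraries and the liver, 27 members were higher in the gonad-labelled libraries (30.8% of all genes) and 16 were lower (33.6%). Between the heart and the gonad-labelled libraries, 15 members were higher in the heart (23.5% of all genes) and 27 were lower (23.1%). With the pairs counted once 25 were lower (22.9% of all genes), LSM5 and SNRPB2 being lost. Between heart and liver SNRPD1 was then lost and SRSF12 gained. The median log2 difference over the members was 0.01 for heart minus liver, 0.31 for gonad-labelled minus liver and -0.28 for heart minus gonad-labelled, against 0, 0 and -0.08 over all genes. These contrasts share their libraries. The size factors of DESeq2 shifted the median of all genes to -0.13 for heart minus liver. With them the heart-to-liver split became 11 higher and 22 lower (6213 and 8637 of all 25095 genes). No called member changed its direction.

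Counted against both other organs together, 22 of 58 members were highest in the gonad-labelled libraries (14.9% of all genes tested) and 10 were lowest there (13.6%). In the liver 12 members were highest (23.1% of all genes) and 14 lowest (19.6%), and in the heart 4 were highest (11.1%) and 6 lowest (8.26%). The gonad-labelled libraries thus held more members at their highest level than either other organ, and 9 of these 22 were SR proteins. With the pairs counted once 21 members were highest in the gonad-labelled libraries and 11 in the liver. The shares over all genes for that count are not given here.

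**Figure D1:**
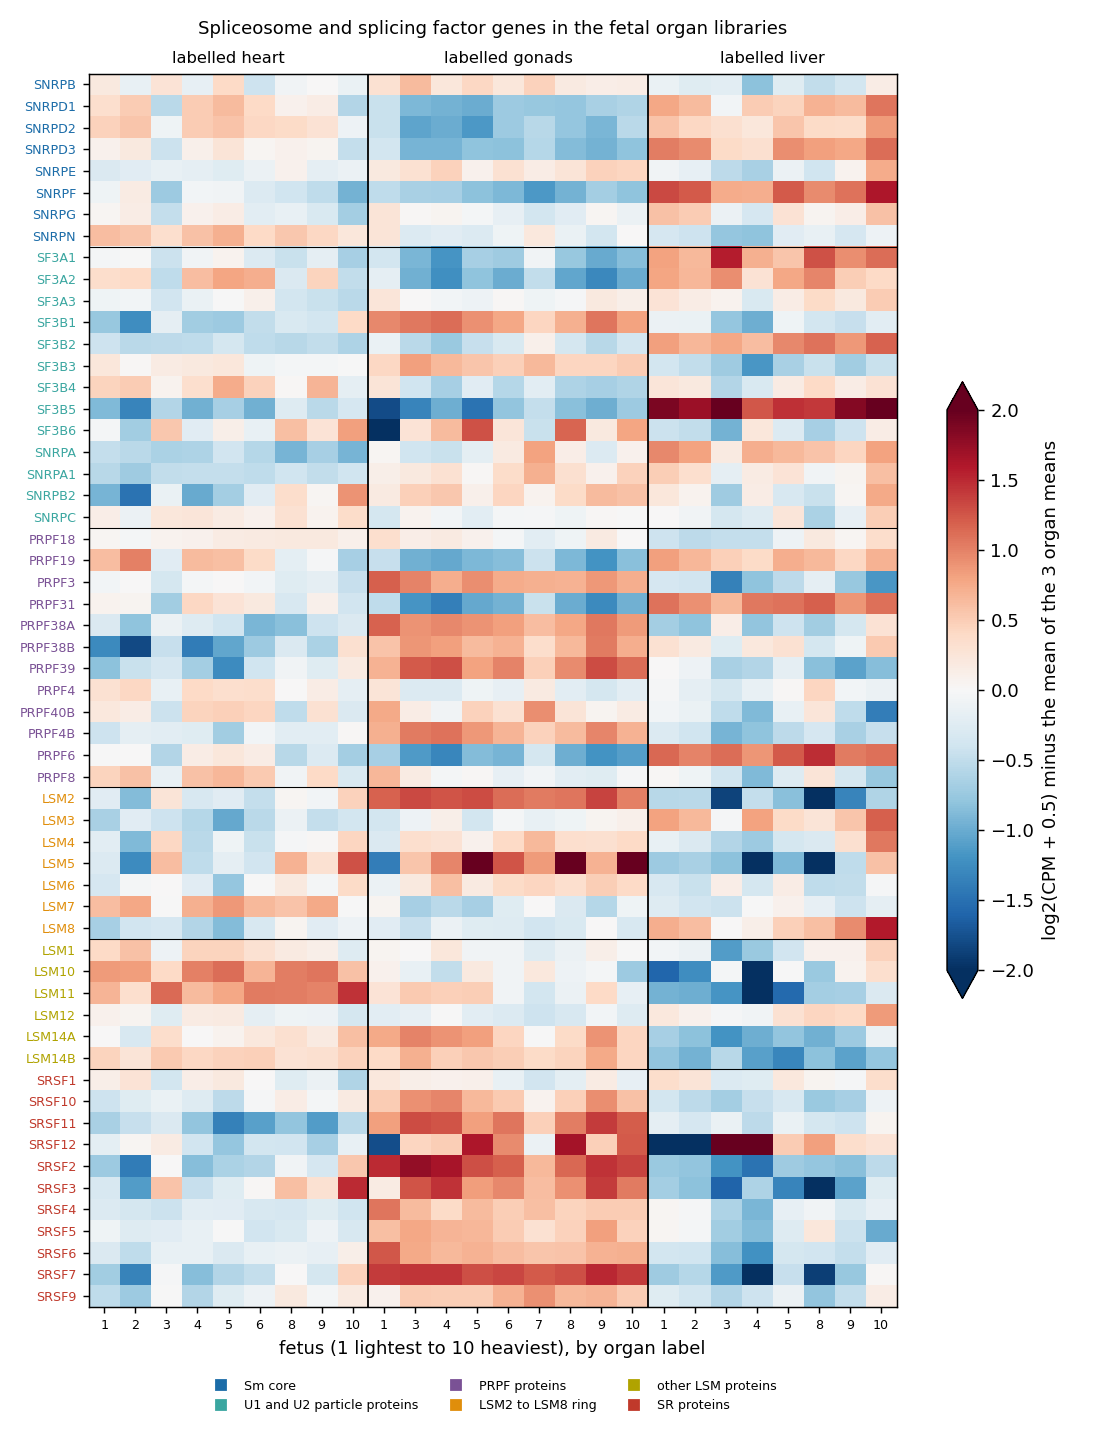
Level of the members reported here (rows, grouped by role) in each of the 26 organ libraries (columns, by organ label and fetus), as log2(CPM + 0.5) minus the mean of the 3 organ means, with red above and blue below. The SR proteins at the bottom are red across the gonad-labelled columns with the exceptions of SRSF1 and SRSF12, and SNRPD1, SNRPD2, SNRPD3 and SNRPF at the top are blue there.

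The 7 proteins of the Sm ring did not move together. SNRPF (Entrez 615240), a member of that ring, lay at 78.1, 125 and 168 CPM in the heart (lowest, median and highest of 9 libraries), at 67.6, 86.5 and 105 CPM in the gonad-labelled libraries and at 249, 337 and 462 CPM in the liver. Every liver library was above every library of the other organs, while heart and gonad-labelled libraries overlapped. Its log2 difference was -1.43 for heart minus liver (SE 0.14, adjusted p = 9.2e-10, edgeR) and -1.93 for gonad-labelled minus liver (SE 0.14, adjusted p = 2.1e-12, edgeR).

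SNRPD1 (Entrez 508788), SNRPD2 (Entrez 514932) and SNRPD3 (Entrez 617823), which pair with one another and with SNRPB in the ring, were lowest in the gonad-labelled libraries. SNRPD3 averaged 166 ± 27.3 CPM in the heart (SD, n = 9), 97.4 ± 14.9 in the gonad-labelled libraries (SD, n = 8) and 285 ± 56.8 in the liver (SD, n = 7). SNRPD2 averaged 168 ± 27.5, 76.3 ± 14.2 and 182 ± 28.1 CPM in the same order, with every gonad-labelled library (58.7 to 96.1) below every library of the heart (122 to 195) and of the liver (153 to 238). For SNRPD2 heart and liver did not differ at the threshold (log2 -0.12, SE 0.12). SNRPD1 was lower in the gonad-labelled libraries than in the liver by a log2 difference of -1.36 (SE 0.16), and its smaller heart-to-liver difference (-0.40, SE 0.16) had an adjusted p of 0.031 in edgeR and of 0.053 with the paired libraries counted once.

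SNRPB and SNRPE went the other way. SNRPB (Entrez 613304), the Sm protein B, averaged 59.7 ± 7.62 CPM in the gonad-labelled libraries (SD, n = 8) against 48.2 ± 8.69 in the heart (SD, n = 9) and 39.1 ± 8.12 in the liver (SD, n = 7). SNRPE (Entrez 531493) averaged 57.7 ± 5.73 CPM in the gonad-labelled libraries against 41.9 ± 3.35 in the heart and 44.3 ± 16.4 in the liver. The differences of both genes from the other organs were between 0.30 and 0.58 on the log2 scale in size, smaller than those of the D proteins. The call of SNRPE against the liver was lost with DESeq2 and with its size factors. SNRPG lay at 53.8 to 96.0 CPM in the heart, 67.2 to 104 in the gonad-labelled libraries and 68.1 to 131 in the liver, with overlap among all 3 organs.

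SNRPN (Entrez 780877), an Sm protein closely related to SNRPB that is known for its expression in brain and heart, was highest in the heart. It lay at 51.8, 64.0 and 72.6 CPM there, at 33.9, 39.9 and 52.7 CPM in the gonad-labelled libraries and at 25.0, 34.8 and 41.1 CPM in the liver (lowest, median and highest). Every heart library was above every liver library, and the lowest heart library lay just under the highest gonad-labelled one. The log2 difference was 0.87 over the liver (SE 0.11) and 0.58 over the gonad-labelled libraries (SE 0.11), with adjusted p of 1.1e-07 and 4.4e-05 in edgeR. Its smaller difference between gonad-labelled libraries and liver (0.29, SE 0.11) was lost with the fetus as a block. SNRPB and SNRPN are closely similar, and the counting option for reads that map more than once is not given in the sources used here, so a split of reads between them is uncertain. The same holds for the short Sm and LSM genes where the genome carries copies.

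Among the proteins of U1 and U2, the subunits of SF3A and SF3B, which hold the branch point, were divided between the organs. SF3B5 (Entrez 574400), a small SF3B subunit, showed the largest organ difference of the 13. It lay at 291, 423 and 716 CPM in the liver, at 49.2, 77.2 and 103 CPM in the heart and at 35.2, 62.2 and 88.0 CPM in the gonad-labelled libraries. No liver library overlapped with another organ, and the log2 difference from the liver was -2.51 in the heart (SE 0.19) and -2.82 in the gonad-labelled libraries (SE 0.19), with adjusted p of 2.7e-12 and 2.6e-13 in edgeR.

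SF3B2, SF3A1 and SNRPA were also highest in the liver. SF3B2 (Entrez 531931) averaged 585 ± 81.3 CPM in the liver (SD, n = 7) against 222 ± 12.1 in the heart (SD, n = 9) and 245 ± 46.8 in the gonad-labelled libraries (SD, n = 8). SF3A1 (Entrez 504381) averaged 275 ± 71.2 CPM in the liver against 117 ± 19.2 in the heart and 83.9 ± 22.5 in the gonad-labelled libraries. SNRPA (Entrez 509802), a protein that binds U1 RNA, averaged 145 ± 22.8, 60.7 ± 7.63 and 95.7 ± 31.0 CPM in the same order.

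SF3B1 and SF3B3 were instead highest in the gonad-labelled libraries. SF3B1 (Entrez 510177), the large subunit that contacts the branch point, lay at 534, 741 and 855 CPM there, at 168, 282 and 522 CPM in the heart and at 201, 323 and 372 CPM in the liver. The lowest gonad-labelled library was above the highest library of either other organ, and heart and liver overlapped. The log2 difference was 1.25 over the liver (SE 0.17, adjusted p = 4.0e-07, edgeR) and -1.30 for heart minus gonad-labelled (SE 0.17, adjusted p = 1.9e-07, edgeR). SF3B3 (Entrez 504962) averaged 159 ± 16.1 CPM in the gonad-labelled libraries, 114 ± 10.2 in the heart and 69.3 ± 11.4 in the liver.

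SF3A2 and SF3B4 were lowest in the gonad-labelled libraries, with means of 30.5 ± 8.71 and 48.5 ± 12.1 CPM there. SNRPA1, the A′ protein of U2, was lowest in the heart, at 54.8 ± 3.41 CPM (SD, n = 9) against 95.5 ± 16.0 in the gonad-labelled libraries and 89.3 ± 17.4 in the liver. SNRPC, a protein that helps U1 to engage the start of the intron, differed in none of the 3 contrasts at the threshold, and its means lay between 60.5 and 71.6 CPM. SF3B6 spread widely in the gonad-labelled libraries, from 2.62 to 33.1 CPM, and its adjusted p against the liver went from 0.025 to 0.050 with the pairs counted once and was not called with the fetus as a block.

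PRPF proteins of the U4, U5 and U6 particles were split in the same manner. PRPF6 (Entrez 534228), which bridges U5 and the U4/U6 pair, lay at 235, 276 and 354 CPM in the liver, at 79.7, 126 and 149 CPM in the heart and at 51.0, 64.2 and 99.2 CPM in the gonad-labelled libraries. PRPF31 (Entrez 513577), a U4/U6 protein, averaged 241 ± 28.3, 120 ± 27.7 and 62.6 ± 15.5 CPM in that order of organs. For both genes every liver library exceeded every library of the other organs, and the log2 differences of gonad-labelled minus liver were -2.07 (SE 0.14) and -1.95 (SE 0.15). PRPF19 (Entrez 513868), the ubiquitin ligase of the complex that bears its name, was lowest in the gonad-labelled libraries, at 53.3 ± 10.4 CPM against 118 ± 41.8 in the heart and 142 ± 15.1 in the liver.

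PRPF39, PRPF38A, PRPF4B and PRPF3 had their highest levels in the gonad-labelled libraries. PRPF39 (Entrez 505547), a U1-associated protein, lay at 124, 177 and 220 CPM there, at 36.7, 67.1 and 101 CPM in the heart and at 42.1 to 89.8 CPM in the liver. No gonad-labelled library overlapped with the other organs, and the log2 difference was 1.49 over the liver (SE 0.18, adjusted p = 2.7e-08, edgeR). PRPF4B (Entrez 512236), a kinase that phosphorylates tri-particle proteins, averaged 176 ± 26.3 CPM in the gonad-labelled libraries, 84.1 ± 11.5 in the heart and 66.8 ± 10.3 in the liver. PRPF3 (Entrez 510322), a U4/U6 protein, averaged 122 ± 15.5, 60.5 ± 6.82 and 41.5 ± 11.9 CPM, and PRPF38A (Entrez 507240) 30.9 ± 3.62, 11.7 ± 2.35 and 13.0 ± 4.29 CPM.

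PRPF8, the scaffold of the catalytic centre, was higher in the heart than in the liver by a log2 difference of 0.60 (SE 0.16), and neither contrast with the gonad-labelled libraries passed the threshold. PRPF18, a factor of the second catalytic step, passed the threshold in none of the 3 contrasts.

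The ring of LSM2 to LSM8 binds the end of U6 RNA. LSM2 (Entrez 538662) lay at 31.7, 35.9 and 40.4 CPM in the gonad-labelled libraries, at 8.23, 13.2 and 21.5 CPM in the heart and at 3.42, 9.25 and 10.9 CPM in the liver. Its gonad-labelled libraries stood clear of both other organs, with a log2 difference of 2.18 over the liver (SE 0.21, adjusted p = 6.6e-10, edgeR). LSM8 (Entrez 613630), the subunit that marks the nuclear ring, was highest in the liver, at 71.4 ± 29.5 CPM against 33.6 ± 6.60 in the heart and 36.3 ± 3.89 in the gonad-labelled libraries. LSM3 was also highest in the liver, at 79.9 ± 22.6 CPM against 37.8 ± 6.60 and 49.4 ± 6.51. LSM7 was highest in the heart, at 76.6 ± 15.4 CPM against 41.0 ± 8.83 in the gonad-labelled libraries and 44.7 ± 6.16 in the liver. LSM5 was higher in the gonad-labelled libraries than in the liver by 2.06 (SE 0.46), with a wide spread of single libraries, and its adjusted p against the heart went from 0.036 to 0.056 with the pairs counted once.

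The other LSM proteins act outside the spliceosome. LSM10 (Entrez 618089) and LSM11 (Entrez 785718), which take part in the U7 particle that trims histone transcripts, were both highest in the heart. LSM11 lay at 8.47, 13.7 and 19.0 CPM in the heart, at 5.01, 8.10 and 9.73 CPM in the gonad-labelled libraries and at 1.13, 3.16 and 5.36 CPM in the liver. Every heart library was above every liver library, by a log2 difference of 2.05 (SE 0.24, adjusted p = 3.3e-08, edgeR). LSM10 was low in every tissue, with means of 4.86 ± 0.866, 2.26 ± 0.585 and 1.78 ± 1.17 CPM. Its difference between heart and gonad-labelled libraries did not pass with the fetus as a block. LSM14A and LSM14B, proteins of cytoplasmic granules that hold untranslated transcripts, were lowest in the liver. LSM14A averaged 41.2 ± 10.9 CPM there, 79.0 ± 14.2 in the heart and 112 ± 24.2 in the gonad-labelled libraries. LSM14B was the most sharply separated of these, at 78.9 to 95.2 CPM in the heart and 86.4 to 112 in the gonad-labelled libraries against 26.6 to 44.8 in the liver. LSM1, which takes the place of LSM8 in the cytoplasmic decay ring, differed between heart and liver alone (log2 0.42, SE 0.16), a call that was lost with DESeq2's size factors.

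Of the 11 SR proteins, 9 were higher in the gonad-labelled libraries than in both other organs, and the median log2 difference of the 11 from the liver was 1.12. SRSF7 (Entrez 507066), which also takes part in transcript export, lay at 311, 350 and 381 CPM in the gonad-labelled libraries, at 52.6, 95.3 and 184 CPM in the heart and at 32.7, 80.0 and 135 CPM in the liver. SRSF2 (Entrez 508312), a regulator of exon inclusion, lay at 117, 190 and 251 CPM against 27.8, 49.0 and 108 CPM in the heart and 26.4, 43.0 and 51.5 CPM in the liver. The lowest gonad-labelled library exceeded the highest library of the other organs for both genes. For SRSF7 the log2 difference was 2.18 over the liver (SE 0.24, adjusted p = 5.4e-09, edgeR), and for SRSF2 it was 2.23 (SE 0.20, adjusted p = 1.6e-10, edgeR).

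SRSF11 (Entrez 513451) averaged 495 ± 101 CPM in the gonad-labelled libraries (SD, n = 8) against 140 ± 32.7 in the heart (SD, n = 9) and 200 ± 27.2 in the liver (SD, n = 7). It was the SR protein with the largest difference between heart and gonad-labelled libraries (log2 -1.82, SE 0.14, adjusted p = 9.9e-12, edgeR). SRSF6 (Entrez 507828) averaged 840 ± 142 CPM in the gonad-labelled libraries, 440 ± 50.8 in the heart and 347 ± 75.4 in the liver. SRSF4, SRSF5, SRSF9 and SRSF10 were higher there than in the heart by 0.75 to 0.90 on the log2 scale.

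SRSF3 (Entrez 540276), a small SR protein that also binds its own transcript, was ordered from the gonad-labelled libraries (85.1, 148 and 209 CPM) through the heart (34.7, 77.5 and 214 CPM) to the liver (17.9, 39.5 and 64.5 CPM). The single highest SRSF3 value was a heart library, that of fetus 10. SRSF1 and SRSF12 were the exceptions. SRSF1 (Entrez 615796), the founding SR protein, averaged 471 ± 89.2, 488 ± 67.1 and 512 ± 87.5 CPM in the heart, gonad-labelled libraries and liver, and its 3 log2 differences lay between -0.15 and -0.03 with SE 0.13. SRSF12 held 0 and 1 counts in the liver libraries of fetuses 2 and 1 and 152 to 584 counts in the other 6, so its liver mean is not a typical level. It was the only member with at most 2 counts in some libraries and at least 300 in others of 1 tissue, a pattern shown by 867 genes in the liver and by 18 to 87 in the other tissues. Of those liver genes 333, none of them a member, lay at one or the other extreme in every liver library, against 1 or 2 genes in each other tissue.

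**Figure D2:**
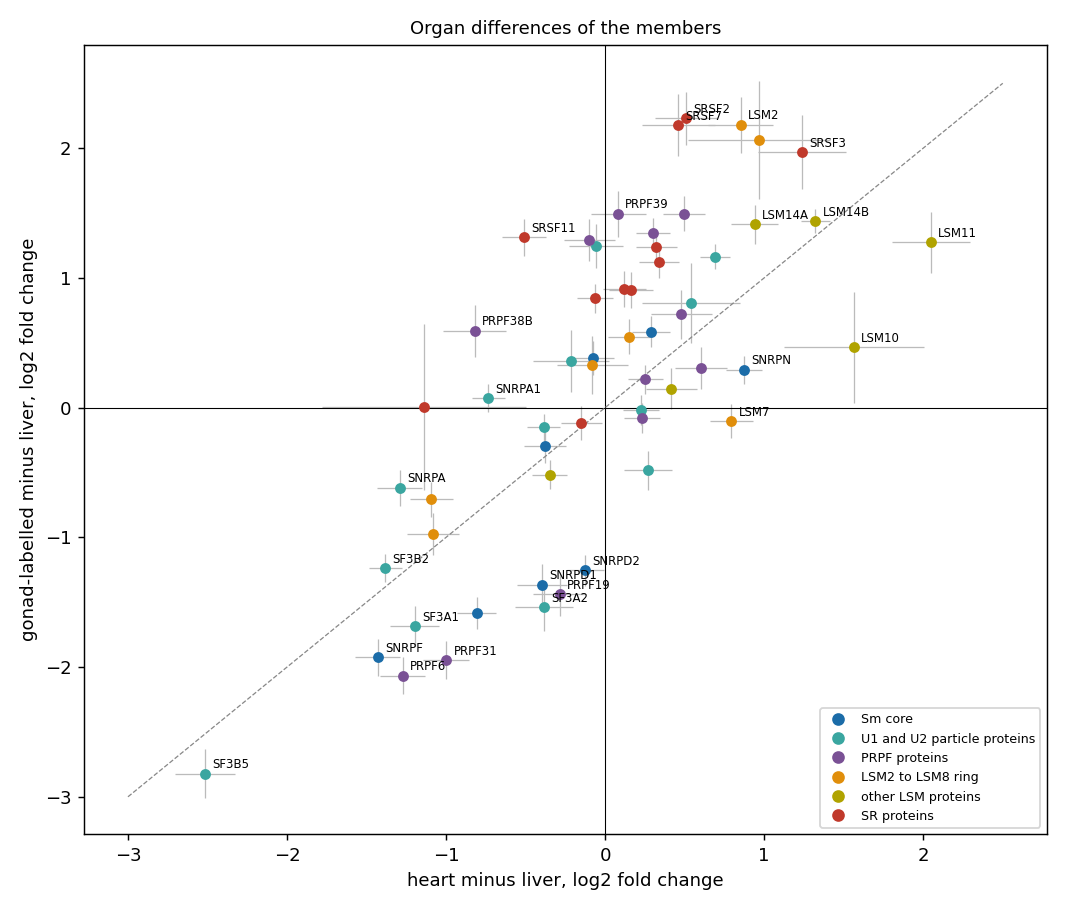
Log2 fold change of the members reported here for heart minus liver (horizontal) and gonad-labelled minus liver (vertical), with SE bars and colours by role group. The dashed line marks equal levels in heart and gonad-labelled libraries. All 11 SR proteins lie above the dashed line, and SF3B5 lies alone at the lower left.

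Other splicing genes, taken from lists of genes outside the symbol rule, also held genes higher and lower in the gonad-labelled libraries than in the liver, where the shares over all genes were 30.8% and 33.6%. Of 51 further spliceosome proteins, 21 were higher in the gonad-labelled libraries than in the liver and 14 were lower, with a median of 0.17. Of 20 hnRNP genes, whose proteins coat nascent transcripts and often oppose SR proteins, 14 were higher in the gonad-labelled libraries and 3 lower, with a median of 0.88, led by HNRNPDL (log2 2.22, SE 0.14). Of 26 tissue regulators of alternative splicing, 13 were higher and 3 lower, with ESRP2 and CELF1 lower by 3.07 and 3.38 in size and MBNL3 higher by 3.53. Against the liver the heart held RBM20, the regulator of titin splicing, at a log2 difference of 6.64 (SE 0.30). Of the 7 kinases that phosphorylate SR proteins, CLK3 was highest in the liver (log2 -3.17 for gonad-labelled minus liver, SE 0.18) and SRPK3, a muscle kinase, was highest in the heart (4.40 over the gonad-labelled libraries, SE 0.24).

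Along fetal weight, maternal blood was examined first. A slope is the change in log2 level for each 0.1 g of fetal weight, fitted with edgeR within 1 tissue on levels normalized within that tissue. In blood, 8 of 58 members had an upward slope at an unadjusted p under 0.05 (4.53% of the 16284 genes tested) and 0 had a downward one (5.16%). In edgeR no gene passed an adjusted p under 0.05 (0% of all genes, 0 members). DESeq2 called 117 of all 16284 genes at that threshold and 0 members. It called the same 8 members at an unadjusted p under 0.05. The slope was above 0 for 48 of 58 members, against 50.9% of all genes, and its median was 0.026 against 0.002. The median coefficient of variation of the members was 10.2% between heifers. It was 16.6% in the gonad-labelled libraries, 19.9% in the heart and 22.5% in the liver. Organ levels were here normalized over the 26 organ libraries and blood levels over their own 10, and no value over all genes is given.

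The members with upward slopes were chiefly proteins of U1 and U2, 5 of 13 at an unadjusted p under 0.05 and 12 of 13 above 0. SNRPA1 (Entrez 512584), the A′ protein of U2, lay at 46.9, 56.3, 55.2, 59.3 and 54.4 CPM in the blood of the heifers with fetuses 1 to 5 and at 55.2, 52.9, 60.2, 70.0 and 66.8 CPM with fetuses 6 to 10. The highest values were those of fetuses 9 and 10, and the others overlapped between the transfer groups. Its slope was 0.087 (SE 0.027, unadjusted p = 0.0079 in edgeR, adjusted p = 0.41).

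SF3A3 (Entrez 523250), a subunit that joins SF3A to U2, lay at 87.8, 100, 98.4, 104 and 100 CPM with fetuses 1 to 5 and at 91.3, 99.7, 117, 115 and 113 CPM with fetuses 6 to 10. The 3 heaviest fetuses had the 3 highest values. Its slope was 0.073 (SE 0.024, unadjusted p = 0.012 in edgeR). SF3B2 and SF3A1 had slopes of 0.063 each (SE 0.023 and 0.025), and SNRPC had one of 0.092 (SE 0.036).

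Outside U1 and U2, SNRPD1 of the Sm core had a slope of 0.097 (SE 0.043), PRPF31 one of 0.079 (SE 0.029) and PRPF8 one of 0.045 (SE 0.020). SNRPD1 lay at 31.6, 27.6, 34.8, 41.5 and 36.1 CPM with fetuses 1 to 5 and at 33.4, 28.5, 35.4, 47.4 and 42.6 CPM with fetuses 6 to 10, with the highest value again at fetus 9. PRPF8 lay at 405 to 451 CPM with fetuses 1 to 5 and at 430 to 484 with fetuses 6 to 10. No SR protein, no protein of the LSM2 to LSM8 ring and no other LSM protein reached an unadjusted p of 0.05, and 8 of 11 SR proteins had a slope above 0. The steepest downward slope of the members was -0.044.

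**Figure D3:**
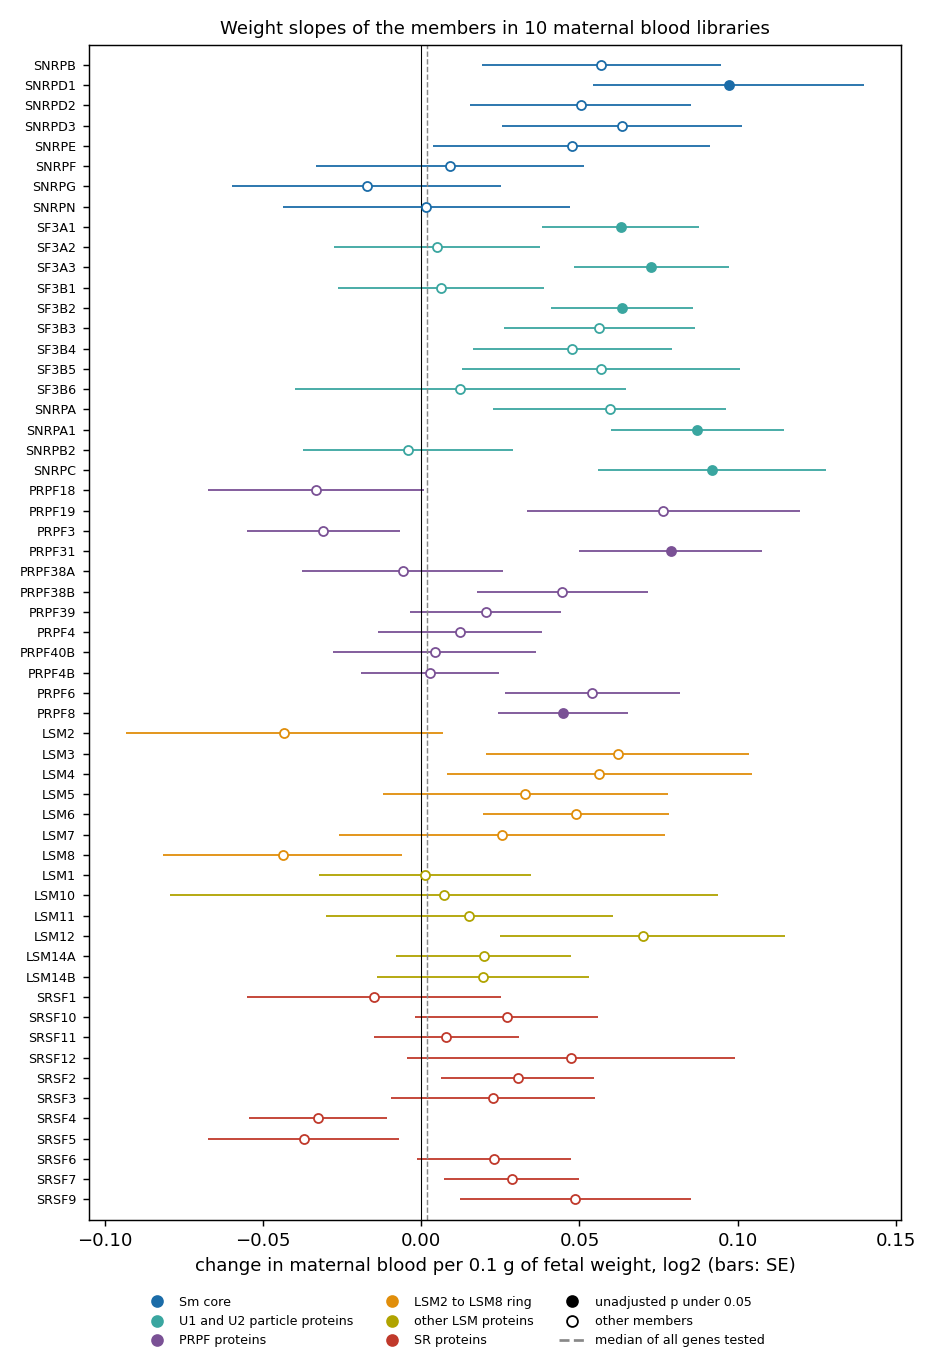
Slope of the members reported here in the 10 maternal blood libraries as log2 change per 0.1 g of fetal weight, with SE bars; filled points mark an unadjusted p under 0.05 and the dashed line the median of all genes tested. Most points lie to the right of 0, and 5 of the 8 filled points are U1 and U2 proteins.

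The count of 8 rested on few libraries. Without fetus 10 it was 2 (2.09% of all genes), without fetus 9 it was 2 (3.29%) and without fetus 2 it was 5 (3.53%). Without both fetuses 9 and 10 it was 0 (4.42%), with 31 of 58 slopes above 0 against 47.8% of all genes. Depth did not run with weight in a simple manner, since the deeper libraries were those of fetuses 2, 3, 6, 9 and 10. In these 5 libraries alone 11 members had an upward slope at an unadjusted p under 0.05 (5.43% of all genes). There 47 of 58 slopes were above 0, against 48.6% of all genes. In the 5 shallower libraries alone the numbers were 0 (2.39% of all genes) and 25 (48.9%). Over all 10 libraries with the depth class, deeper or shallower, as a covariate they were 6 (4.41%) and 47 (51.1%).

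Red cell RNA varied widely among the same libraries, and the slope of its leading gene did not pass the test. HBB, the beta globin gene, lay at 9574, 835, 3121, 206 and 535 raw CPM with fetuses 1 to 5 and at 4052, 974, 2985, 197 and 311 with fetuses 6 to 10, with a slope of -0.70 (SE 0.32, unadjusted p = 0.0502 and adjusted p = 0.515 in edgeR). Of 9 erythroid markers tested, 1 had a slope above 0 and 1, HBA, was downward at an unadjusted p under 0.05. The summed level of the 10 listed ranged from 226 to 10005 raw CPM. Of 9 T cell markers, 8 had a slope above 0 and CD3D was upward at that threshold. Of 4 monocyte markers 0 had a slope above 0 and CD163 was downward. Of 6 B cell markers 4 had a slope above 0, of 6 neutrophil markers 4 and of 6 platelet markers 2, with 0 passing in each list. The median slopes were 0.055 for T cell, 0.048 for B cell and 0.044 for neutrophil markers, and -0.039 for monocyte and -0.037 for platelet markers. Of the 9 listed heart genes only MYH7 and TNNI1 reached the count filter in blood, and both were downward. Their medians over the blood libraries were 0.805 and 0.148 raw CPM and their highest values 3539 and 227. The other heart genes stayed low in blood, with MYH6 at most 21.5, ACTC1 at most 2.35, MYL7 at most 0.247 and NKX2-5 at 0. The summed level of the 9 genes was 0.594 to 3790 raw CPM in the ET_D7 group (median 19.4). It was 0.0981 to 1.73 in the ET_D9 group (median 0.344). With the HBB level as a covariate, SF3B2 alone kept an unadjusted p under 0.05 (2.99% of all genes were then upward). Of the 58 slopes 43 were above 0, against 52.2% of all genes, with a median of 0.021 against 0.026 without the covariate. The part of blood cell composition in the slopes was not tested further.

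Splicing genes outside the symbol rule were read against the same shares of all genes in blood, 4.53% upward and 5.16% downward. Of 51 further spliceosome proteins, 7 had an upward slope at an unadjusted p under 0.05 and 0 a downward one, with 40 slopes above 0 and a median of 0.036. DHX38, a helicase of the second step, was first among them with 0.09 (SE 0.03). Of 20 hnRNP genes 2 were upward and 0 downward, and of 21 alternative splicing regulators 2 were upward and 3 downward.

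Heart members showed larger slopes in both directions. At an unadjusted p under 0.05, 17 of 58 had an upward slope (16.4% of the 16250 genes tested) and 8 a downward one (12.7%). At an adjusted p under 0.05, 4 members were called (6.77% of all genes). SNRPB2, PRPF38B and SRSF3 rose with weight and PRPF19 fell. This count moved with the processing. DESeq2 called 18 members and 3066 of all genes. With every gene of at least 1 count it was 1 (706 of all 22766 genes), and without mitochondrially encoded genes it was 2 (950 of 16233). It was 24 without fetus 3, 8 without fetus 9, 1 without fetus 6 and 0 when any other single fetus was left out. The calls over all genes moved likewise, to 3947 of 15907 without fetus 3, 1661 of 16116 without fetus 9, 758 of 16068 without fetus 6 and 0 otherwise. The median slope over the members was -0.011 against -0.014 over all genes, and 27 of 58 were above 0 against 46.4% of all genes.

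SNRPB2 (Entrez 767873), the B″ protein that binds U2 RNA with SNRPA1, lay at 16.2, 11.4, 28.8, 15.0 and 19.2 CPM in the hearts of fetuses 1 to 5 and at 26.8, 39.6, 32.7 and 58.4 CPM in those of fetuses 6, 8, 9 and 10. These are levels normalized within the heart, lower than those on the scale of the 3 organs. Fetus 3 was the only ET_D7 library above any ET_D9 library. The slope was 0.39 (SE 0.077, adjusted p = 0.040, edgeR).

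PRPF38B (Entrez 100299693), a relative of the activation factor PRPF38A, lay at 24.8, 17.7, 44.3, 22.4 and 29.1 CPM in fetuses 1 to 5 and at 37.0, 49.4, 39.9 and 75.5 CPM in fetuses 6, 8, 9 and 10, with a slope of 0.32 (SE 0.078, adjusted p = 0.044, edgeR). SRSF3 lay at 46.5, 27.4, 86.5, 41.1 and 48.3 CPM and at 59.4, 88.0, 72.8 and 162 CPM in the same fetuses, with a slope of 0.36 (SE 0.093, adjusted p = 0.048, edgeR). Fetus 10 held the highest value of both genes, and fetus 3 the highest among the ET_D7 fetuses. PRPF19 ran opposite, at 110, 149, 61.6, 109 and 108 CPM and at 94.4, 62.5, 71.4 and 44.9 CPM, with a slope of -0.27 (SE 0.071, adjusted p = 0.0497, edgeR).

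By role, upward slopes at an unadjusted p under 0.05, the call of 16.4% of all genes, were held in the heart by 5 of 11 SR proteins (SRSF2, SRSF3, SRSF7, SRSF9 and SRSF10), by 3 of 7 proteins of the LSM2 to LSM8 ring and by 4 of 13 U1 and U2 proteins, among them SF3B1 at 0.21 (SE 0.062). Of the 8 Sm core genes 7 had a slope below 0, and SNRPF and SNRPG were downward at an unadjusted p under 0.05. SRSF1 was the only SR protein with a downward slope at that threshold (-0.13, SE 0.050). Outside the symbol rule, 8 of 20 hnRNP genes were upward in the heart and 0 downward, against 16.4% and 12.7% of all genes, and HNRNPR passed the adjusted threshold at 0.31 (SE 0.07).

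The share of mitochondrially encoded counts moved with weight in these heart libraries. It was 45.1%, 57.3%, 23.5%, 41.5% and 40.8% in fetuses 1 to 5 and 39.0%, 25.5%, 28.5% and 17.1% in fetuses 6, 8, 9 and 10. The lowest share was that of fetus 10, and the lowest of the ET_D7 fetuses that of fetus 3. With the share as a covariate 0 members had an unadjusted p under 0.05 in either direction, and 39 of 58 slopes were above 0. Over all genes 2.49% were then upward and 6.18% downward, and 54.0% of slopes were above 0. Leaving out fetus 10 left 4 upward and 1 downward (7.35% and 5.15% of all genes). Leaving out fetus 2 left 16 and 4 (14.2% and 8.12%), and leaving out fetus 3 gave 20 and 15 (21.1% and 19.0%). No gene passed the adjusted threshold when any 1 of fetuses 1, 2, 4, 5, 8 or 10 was left out. Without fetus 3, 24 members passed it, as did 3947 of all 15907 genes. Leaving the mitochondrially encoded genes out of the table before normalization gave 18 upward and 8 downward (16.4% and 12.5% of all genes).

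**Figure D4:**
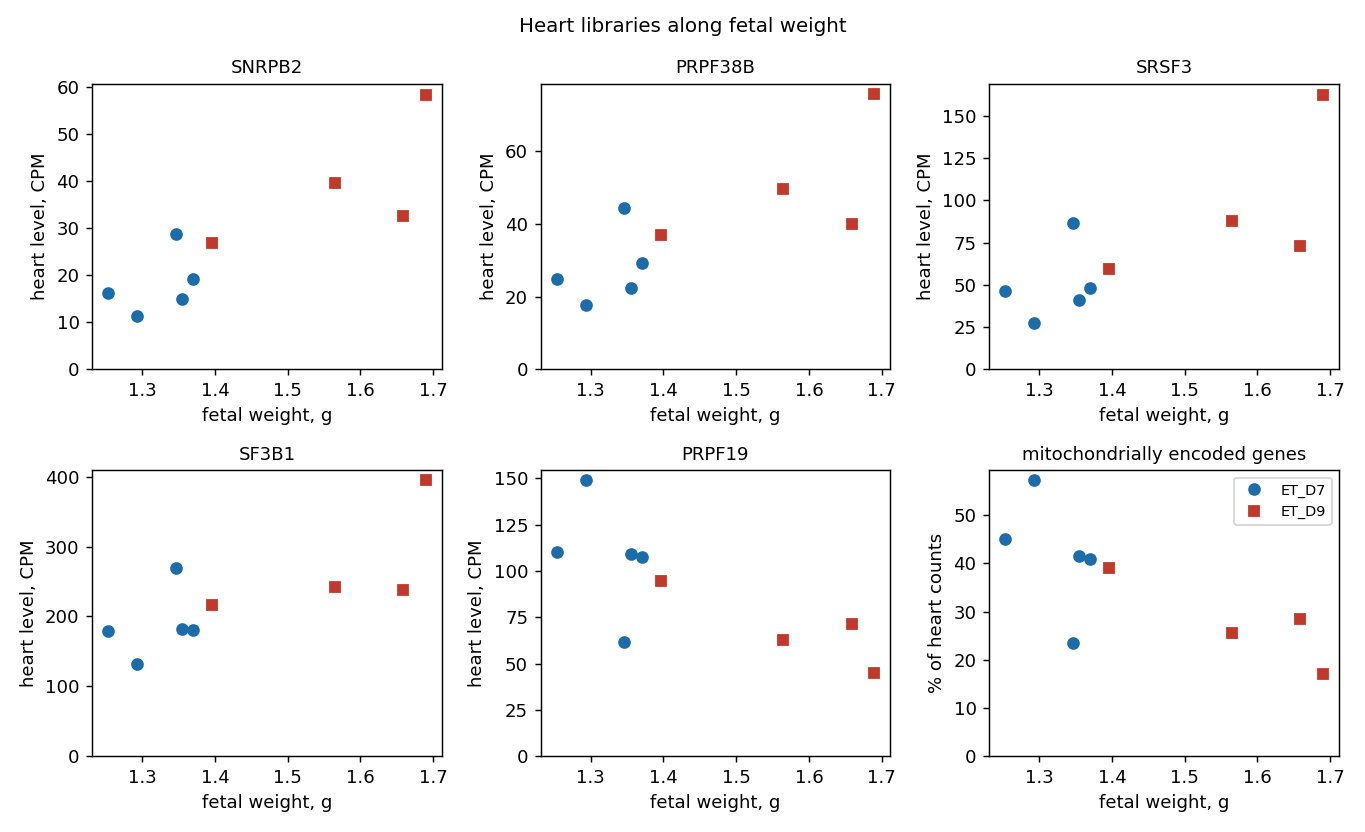
Levels of SNRPB2, PRPF38B, SRSF3, SF3B1 and PRPF19 in the 9 heart libraries (CPM normalized within the heart) and the share of mitochondrially encoded counts (%) against fetal weight in g, with circles for ET_D7 and squares for ET_D9. The first 4 genes are highest and PRPF19 and the mitochondrial share lowest at 1.69 g, and the ET_D7 fetus at 1.346 g stands apart from the other ET_D7 fetuses in every panel.

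In the gonad-labelled libraries 1 member had an upward slope at an unadjusted p under 0.05 (2.38% of the 17809 genes tested) and 1 a downward one (3.24%), and none passed an adjusted p (0% of all genes). They were SF3B5, with a slope of 0.19 (SE 0.077), and PRPF8, with one of -0.12 (SE 0.046). SF3B5 lay at 54.2, 79.0, 99.3 and 72.7 CPM in fetuses 1, 3, 4 and 5 and at 115, 145, 115, 99.1 and 119 CPM in fetuses 6 to 10, where the values of fetuses 6 and 8 are those of the pair in a fixed ratio. The lowest ET_D9 value lay just under the highest ET_D7 value. With the pair counted once PRPF8 no longer passed.

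Within the gonad-labelled libraries some members spread far more than along weight. LSM5 lay at 7.08, 30.8, 41.0 and 90.9 CPM in fetuses 1, 3, 4 and 5 and at 50.7, 38.6, 90.2, 33.6 and 85.9 CPM in fetuses 6 to 10. The libraries of fetuses 5, 8 and 10 were high and that of fetus 1 low, as they also were for SF3B6 (54.7, 51.5 and 37.7 CPM in the high libraries and 4.04 in that of fetus 1) and SRSF12.

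In the liver 4 members had an upward slope at an unadjusted p under 0.05 (5.97% of the 16605 genes tested) and 1 a downward one (11.2%). With the pair counted once 5 were upward (4.11% of all genes), LSM1 being gained. PRPF39 was called at an adjusted p under 0.05 (2.23% of all genes). It lay at 69.3, 67.7, 48.2, 51.8 and 63.4 CPM in the livers of fetuses 1 to 5 and at 34.3, 35.2 and 36.9 CPM in those of fetuses 8, 9 and 10, so all 3 ET_D9 values were below all 5 ET_D7 values. The slope was -0.23 (SE 0.046, adjusted p = 0.040, edgeR), and with fetuses 1 and 2 counted once the adjusted p was 0.12.

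PRPF18 (Entrez 507639) lay at 29.2, 28.3, 30.6, 31.3 and 38.0 CPM in fetuses 1 to 5 and at 39.6, 43.0 and 48.5 CPM in fetuses 8, 9 and 10, with a slope of 0.16 (SE 0.038, unadjusted p = 0.0021 and adjusted p = 0.063 in edgeR). LSM4, LSM8 and LSM12 had upward slopes of 0.25 (SE 0.083), 0.18 (SE 0.067) and 0.12 (SE 0.042). LSM8 was at 98.2 CPM in fetus 10 and 70.0 in fetus 9, against 36.8 to 55.3 in the other 6 livers. Without fetuses 9 and 10 the counts were 0 upward and 5 downward (3.12% and 5.59% of all genes). The slopes of LSM4 and LSM8 then turned to -0.060 and -0.050.

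Variation along weight without a set direction was tested with a natural cubic spline of 3 degrees of freedom. At an unadjusted p under 0.05 it called 4 members in blood (9.77% of all genes), 3 in the heart (7.99%), 9 in the gonad-labelled libraries (12.6%) and 15 in the liver (17.9%). None passed an adjusted p under 0.05, where the shares over all genes were 0.129%, 0%, 0% and 1.81%. In blood the 4 were SNRPA1, SNRPC, SNRPD1 and PRPF18, and PRPF18 was the only one that did not pass in the linear fit, at 88.9 to 107 CPM with fetuses 1 to 5, 99.8 to 109 with fetuses 6 to 8 and 78.3 and 87.4 with fetuses 9 and 10. With the pairs counted once the liver count was 8 (10.7% of all genes) and the gonad-labelled count 10 (22.3%). SF3B6 then passed the adjusted p in the gonad-labelled libraries, as 5.28% of all genes did.

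**Figure D5:**
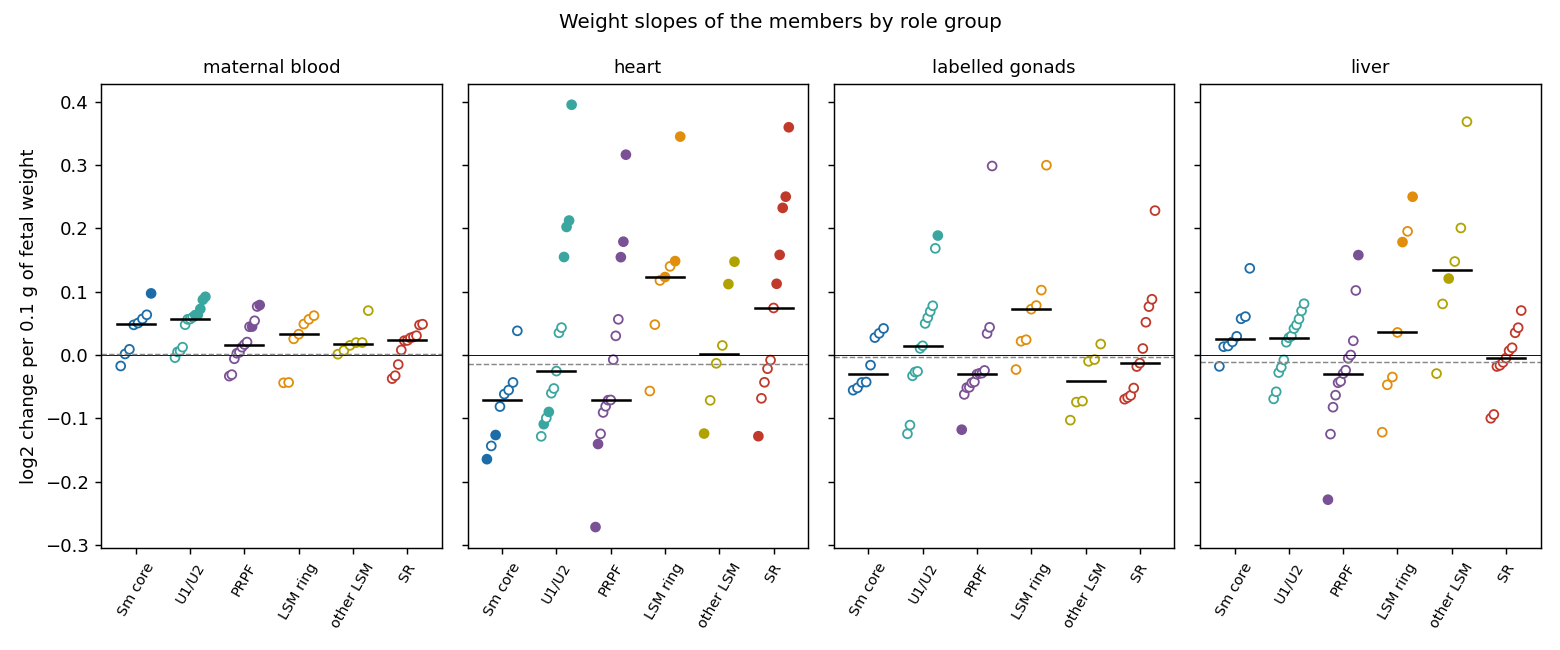
Slopes of the members along fetal weight (log2 change per 0.1 g) in the 4 tissues by role group; each point is a gene, filled at an unadjusted p under 0.05, with a black bar for the group median and a dashed line for the median of all genes tested. Slopes in maternal blood lie within 0.10 of 0, those in the heart reach 0.39, and the Sm core lies mostly above 0 in blood and below 0 in the heart.

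Because a trend in 1 tissue and none in another does not show a difference, the slopes of blood and each organ were also compared in 1 fit over all 36 libraries. Between blood and heart, 6 members had a higher slope in blood at an unadjusted p under 0.05 (5.84% of 13443 genes) and 7 a lower one (12.3%), and 2 were called at an adjusted p (1.76%). PRPF19 had a slope higher in blood than in heart by 0.33 (SE 0.08, adjusted p = 0.025, edgeR) and SNRPB2 one lower by 0.42 in size (SE 0.10, adjusted p = 0.027, edgeR). Between blood and the gonad-labelled libraries, 2 members had a higher slope in blood (2.16%) and 0 a lower one (2.72%), and 0 passed the adjusted p (0.0149%).

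Between blood and liver, 1 member had a higher slope in blood (9.95%) and 4 a lower one (9.03%), and 3 passed the adjusted p (7.38%). These were PRPF18, with a difference of -0.20 (SE 0.05, adjusted p = 0.0081, edgeR), PRPF39, with 0.24 (SE 0.07, adjusted p = 0.043, edgeR), and LSM8, with -0.23 (SE 0.07, adjusted p = 0.047, edgeR). With the pairs counted once the adjusted p of PRPF39 in edgeR was 0.094. At an unadjusted p under 0.05, 5 members then had a lower slope in blood (8.18%). The 3 comparisons share the blood libraries.

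The transfer groups were also compared directly, ET_D9 minus ET_D7. In blood 1 member was higher in ET_D9 at an unadjusted p under 0.05 (3.47% of all genes) and 0 were lower (4.13%), with none at an adjusted p (0% of all genes). It was SF3B2, at 628, 562, 621, 691 and 653 CPM with the ET_D7 fetuses and at 664, 708, 691, 720 and 742 CPM with the ET_D9 fetuses, a log2 difference of 0.16 (SE 0.072, unadjusted p = 0.046 in edgeR, adjusted p = 0.65). SRSF7 was the only member whose 5 ET_D9 libraries all lay above the 5 ET_D7 libraries in blood (0.639% of all genes), at 162 to 179 CPM against 150 to 162, with the nearest libraries of the groups almost equal.

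In the heart 12 members were higher in ET_D9 at an unadjusted p under 0.05 (14.6% of all genes) and 2 were lower (9.98%), with none called at an adjusted p (0.0492%). SNRPB2 differed most, by 1.12 on the log2 scale (SE 0.29), and SRSF10 differed by 0.38 (SE 0.11). Groups did not overlap for 4 members higher in ET_D9, among them LSM8, SRSF10 and SRSF6 (6.62% of all genes), and for SF3B3, lower (3.5%).

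In the gonad-labelled libraries 3 members were higher (8.46% of all genes) and 5 lower (10%) at an unadjusted p under 0.05. None passed an adjusted p (0.354%). With the pair counted once 3 were higher (7.68% of all genes) and 1 lower (5.29%) at an unadjusted p under 0.05. SF3B5 was higher by 0.64 (SE 0.18) and LSM11 lower by 0.50 in size (SE 0.16). No member's transfer groups were free of overlap there, where 3.64% of all genes were higher without overlap and 4.59% lower. In the liver 5 members were higher (5.62%) and 1 lower (11.7%), and PRPF39 was called at an adjusted p (4.14% of all genes), with a log2 difference of -0.76 (SE 0.16, adjusted p = 0.032, edgeR) that had an adjusted p of 0.090 with the liver pair counted once. Counted that way, 4 liver members were higher in ET_D9 at an unadjusted p under 0.05 (4.33% of all genes). The liver groups did not overlap for PRPF18 and LSM11, higher in ET_D9 (5.97%), and for PRPF39, lower (8.91%).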

How the data were processed

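RNA-seq was available for 36 libraries. Per the study's methods, reads were checked with FastQC 0.11.9, trimmed with Trimmomatic, mapped with STAR 2.7.0b to ARS-UCD1.3 and counted with featureCounts (Subread 2.0.3). Strand and multi-mapping options are not given in the sources used here. Organ libraries were made with a TruSeq stranded mRNA kit and blood libraries, from Tempus tubes, with a SMARTer stranded kit, and the authors kept RNA of adequate integrity. The authors deposited whole-number counts per Entrez gene, not normalized. Symbols came from the RefSeq table, which matched 31630 of 35092 identifiers.

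Counts were tested with edgeR 4.0.16 (R 4.3.3) by quasi-likelihood after TMM normalization: the 3 organs in 1 fit over 25095 genes with at least 1 count, and fetal weight, a spline of weight and transfer group within each tissue over genes that reached 10 counts in 4 or more libraries. P-values were adjusted over all genes of a fit, and calls were made under 0.05. DESeq2 1.42.0 was an alternative. The tests were tried on simulated counts first. Members, lists and the naming rule (the members with the largest organ differences or the smallest p per tissue and direction, with the Sm core, SF3B and SRSF genes) were chosen with earlier results of these data known. Libraries of 1 fetus are paired by animal. The correlation of their deviations had a median of 0.148 for heart and gonad-labelled libraries and of -0.00856 to 0.0502 for the other pairs of tissues, over 8358 genes. All counts are over the 58 members, and 1 of them is not reported here by itself.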

Additional observations from a re-analysis of the deposited data

Results flagged for a closer look

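Among 51 members tested in 4 tissues, 14 of 204 groups held a library whose gap to its nearest neighbour was beyond Dixon's limit, where chance gives about 1 in 20 groups. Values are CPM on the scale of the organs, or of blood. In the gonad-labelled libraries fetus 1 was highest for PRPF8 (360), SF3B4 (74.7), SRSF4 (398) and SRSF6 (1180), the next libraries lying at 255, 53.8, 291 and 844, and fetus 7 was highest for SNRPA (165, next 104). In the liver fetus 10 was highest for LSM14A (64.0), LSM4 (26.9), LSM5 (19.5) and SNRPE (78.3), with fetus 9 next at 41.8, 15.9, 8.91 and 48.8. In the heart SNRPE was highest in fetus 8 (49.7, next 43.2) and SRSF3 in fetus 10 (214, next 116). In maternal blood PRPF6 stood out with fetus 10 (240, next 205), SNRPD2 with fetus 9 (28.7, next 24.4) and SRSF4 with fetus 2 (325, next 296).

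The tested difference of weight slopes passed the adjusted threshold in edgeR for PRPF19 (0.33) and SNRPB2 (-0.42) between blood and heart, and for PRPF39 (0.24), PRPF18 (-0.20) and LSM8 (-0.23) between blood and liver, in log2 per 0.1 g.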

How the results depend on the processing

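Precision was limited by 7 to 10 samples a tissue with the pairs counted once, and by weight that moved with transfer group. It was also limited by libraries that differed in mitochondrial share and red cell RNA. Alternatives with pairs counted once, with the mitochondrial share or HBB as a covariate and with depth classes alone were chosen after seeing the data. Of the values of single genes under the alternatives, 1344 kept their direction and their side of the threshold, 139 kept the direction alone and 6 turned. Where no cause is named below, the cause was not tested.

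For heart minus liver, DESeq2 and DESeq2's size factors in edgeR each gave 11 members higher, not 18. Over all 25095 genes they gave 6066 and 6213 higher, not 6997. Requiring a log2 difference past 1 left 4 members higher and 8 lower for heart minus liver, 17 higher for gonad-labelled minus liver, and 4 higher and 10 lower for heart minus gonad-labelled, since the rule is stricter by construction. In the weight slopes at an unadjusted p under 0.05, leaving out fetuses 9 and 10 gave 0 upward in blood (4.42% of all genes). It gave 4 upward and 1 downward in the heart (6.88% and 4.76%) and 3 upward in the gonad-labelled libraries (5.36%). In the liver it gave 0 upward and 5 downward (3.12% and 5.59%), and LSM4 turned to -0.060 and LSM8 to -0.050. Transfer group as a covariate gave 2 upward and 1 downward in the heart (1.54% and 1.98% of all genes). It gave 0 and 0 in the gonad-labelled libraries (0.0393% and 0.0281%) and 2 and 3 in the liver (5.06% and 2.41%). In blood it gave 8 upward (4.15%) with a median slope of 0.051. There SF3A1, SF3B2 and PRPF8 no longer passed and PRPF19, SNRPA and SNRPB did. The mitochondrial share as a covariate gave 0 upward and 0 downward in the heart (2.49% and 6.18% of all genes). There SNRPF turned to 0.013 and SNRPG to 0.00086. The same covariate gave 3 downward in the gonad-labelled libraries (8.16% of all genes). In blood, HBB as a covariate gave 1 upward (2.99% of all genes). The shallower libraries alone gave 0 upward (2.39%), with SNRPC turning to -0.0093 and SNRPD1 to -0.033. With pairs counted once, the gonad-labelled libraries had 0 downward slopes (2.41% of all genes), and the liver spline called 8 (10.7%). Between transfer groups 3 gonad-labelled members were then higher (7.68%) and 1 lower (5.29%). The liver spline called 9 with every gene of at least 1 count. The heart spline called 10 with DESeq2 and 5 with its size factors. No share over all genes is given for these alternative spline counts or for the log2 rule, so they are not a result about the members. In blood the transfer groups differed for 0 members with every gene of at least 1 count and for 0 without mitochondrially encoded genes.

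With the fetus as a block in a paired fit, the slope difference between blood and gonad-labelled libraries was called for 1 member in place of 2. Between organs, the calls of PRPF4B for heart minus liver, SF3B6 and SNRPN for gonad-labelled minus liver and LSM10 for heart minus gonad-labelled were lost with the block, and that of SF3B5 was gained in the last. The block changed no other call of a member between organs and moved no other count by over 1.5 times.

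Leaving out 1 fetus at a time gave these ranges. Organ contrasts had 11 to 19 higher and 15 to 20 lower for heart minus liver, 23 to 29 and 16 to 17 for gonad-labelled minus liver, and 13 to 15 and 23 to 28 for heart minus gonad-labelled. Slopes had 2 to 10 upward in blood (2.09% to 5.56% of all genes). In the heart 4 to 20 were upward (7.35% to 21.1%) and 1 to 15 downward (5.15% to 19.0%). In the gonad-labelled libraries 0 to 3 were upward (1.33% to 4.32%) and 0 to 3 downward (1.40% to 3.90%). In the liver 1 to 5 were upward (3.60% to 8.83%) and 1 to 2 downward (7.18% to 13.0%). The spline called 0 to 6 members in blood, 1 to 14 in the heart, 2 to 25 in the gonad-labelled libraries and 2 to 22 in the liver. The transfer groups differed for 0 to 2, 7 to 28, 2 to 13 and 2 to 9 members in the same order. For the organ contrasts, the spline and the transfer groups, the shares over all genes in these fits are not given here. Those ranges are therefore not a result about the members.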

Other observations

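The organ contrast of gonad-labelled minus liver and the slopes within the heart compare different libraries and are set side by side here. They are not independent. The organ fit included the heart libraries in its normalization and variance estimates, and the organs came from the same fetuses. Of the 27 members higher in the gonad-labelled libraries than in the liver, 17 had a heart slope above 0, with 13 upward and 0 downward at an unadjusted p under 0.05. Of the 16 members lower there, 13 had a heart slope below 0, with 2 upward and 4 downward. Over all genes the shares with a heart slope above 0 were 57.3% of 6523 higher genes and 31.8% of 5590 lower genes. At an unadjusted p under 0.05, 1622 of the higher genes were upward and 644 downward, and 409 of the lower genes were upward and 979 downward. The relation was thus shared by genes at large and is a description, without a test.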
